A study of Mus musculus with 3 samples.

Results

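The regions described here are chromatin immunoprecipitation sequencing (ChIP-seq) peaks of Smad3 and JMJD3 that lie deep inside long genes. A peak was taken when it lay over 50 kb from the closest transcription start site (TSS) and its midpoint fell between the start and end of the gene with that TSS. The rule uses position alone. It took 7896 of 98086 Smad3 peaks (8.05%, 95% exact Clopper-Pearson interval 7.88% to 8.22%) and 5555 of 63154 JMJD3 peaks (8.80%, 8.58% to 9.02%), together 13451 of 161240. The peaks come from mouse neural stem cells, which were derived from wild-type cerebral cortex at E12.5 of embryonic development and kept in culture with EGF at 20 ng/ml and FGF at 10 ng/ml. Both immunoprecipitated samples had received TGFb at 5 ng/ml, for 30 min per the series text, and the labels give TGFb to the input DNA as well. There is 1 library per antibody, with no replicate and no peak list from untreated cells, so every interval below covers counting error only and no value carries a replicate error. The lists hold no read number, height or RNA level, so the depth behind a peak is unknown and the cell type of the culture could not be checked against marker expression.

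Smad3 is the transcription factor that the activated TGF-beta receptor phosphorylates and sends to the nucleus. JMJD3, encoded by Kdm6b, removes methyl groups from lysine 27 of histone H3, a mark that Polycomb complexes place on silenced genes. Genes with very long introns are common among those that build the nervous system, including cell adhesion molecules, axon guidance receptors, channels and transcription factors. Their introns are known to hold many enhancers, which can act on the host gene or on a neighbour, and a peak list does not show which gene an enhancer serves. The deposited files give the start and end of each gene but not its exons, so intronic and exonic positions were not separated here.

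Peak sequences on mm9, the build of the files, were not used here. Sequences are shown for RefSeq promoters of 3 leading host genes. Each gene had a Smad3 and a JMJD3 peak within 1 kb of its TSS as well as many peaks deep in its body. Among the genes with most deep peaks and both promoter peaks, these were the genes with exactly 1 entry in the RefSeq promoter table. The table covers 250 bases before to 50 bases after the TSS on assembly GRCm38.p6, which is not the build of the peaks. The windows were therefore not compared with peak coordinates. Whether they hold the TSS from which the distances are measured was not checked. Npas3, for example, spans 824.1 kb in RefSeq and 823.5 kb in the peak lists. Npas3 (chr12:53248182-53248481, plus strand) encodes a basic helix-loop-helix PAS transcription factor, Ptprm (chr17:67354410-67354709, minus strand) a receptor tyrosine phosphatase that mediates cell adhesion, and Tns3 (chr11:8664486-8664785, minus strand) a tensin that links integrins to the actin cytoskeleton. Capitals mark GGCGC or its complement GCGCC, a GC-rich element that Smad3 can bind, and would also mark the Smad element CAGAC or its complement GTCTG, which none of the 3 windows holds.
Npas3: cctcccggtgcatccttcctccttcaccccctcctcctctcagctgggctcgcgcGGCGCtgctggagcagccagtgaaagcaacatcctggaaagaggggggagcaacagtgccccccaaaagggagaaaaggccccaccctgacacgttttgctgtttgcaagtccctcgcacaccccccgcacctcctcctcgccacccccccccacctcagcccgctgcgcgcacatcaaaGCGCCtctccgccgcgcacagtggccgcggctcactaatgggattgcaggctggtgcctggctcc
Ptprm: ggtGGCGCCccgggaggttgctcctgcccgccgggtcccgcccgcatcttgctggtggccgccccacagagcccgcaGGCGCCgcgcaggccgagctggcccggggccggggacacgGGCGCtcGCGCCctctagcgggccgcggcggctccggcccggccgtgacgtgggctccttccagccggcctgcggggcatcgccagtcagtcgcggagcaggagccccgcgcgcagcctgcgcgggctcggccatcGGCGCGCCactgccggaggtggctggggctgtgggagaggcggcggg
Tns3: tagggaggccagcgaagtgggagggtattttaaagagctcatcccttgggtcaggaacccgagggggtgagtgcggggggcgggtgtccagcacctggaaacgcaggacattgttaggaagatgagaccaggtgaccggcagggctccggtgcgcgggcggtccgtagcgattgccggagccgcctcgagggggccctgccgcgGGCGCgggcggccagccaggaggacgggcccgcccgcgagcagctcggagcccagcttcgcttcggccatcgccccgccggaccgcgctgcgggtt

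Npas3 had 2 matches to the GC-rich element, Ptprm 8, some of them overlapping, and Tns3 1. GGCGC or GCGCC stood in 36.9% of all 32851 promoter windows and in 59.6% of the 1738 windows of host genes. CAGAC or GTCTG stood in 49.6% and 43.6%. These shares describe letters in a window and do not show binding. They were not given for other long genes or for other genes with a promoter peak, so they are not read as particular to hosts. Of the 1621 host genes, 1618 matched RefSeq on Entrez ID and 1242 had a promoter entry. The widest regions at the promoters were 3300 bp (Smad3) and 2780 bp (JMJD3) at Npas3, 860 bp and 1100 bp at Ptprm, and 970 bp and 731 bp at Tns3. A region here is a run of peaks of the same list at most 10 bp apart, joined together.

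Deep intragenic peaks lay at a median distance of 97113.5 bp (Smad3) and 99956 bp (JMJD3) from the TSS. All of them lay downstream of it, which the rule requires. The farthest of each factor lay in Lrp1b, a very large gene for an LDL receptor family protein, at 1677192 bp and 1564227 bp. Just inside the limit were the Smad3 peak in Pex14 at 50015 bp, and just outside it were peaks in Ski at 49998 bp and in Susd1 at 49994 bp. For JMJD3, Gldc at 50012 bp and Adamts12 at 50069 bp were inside, and Pitpnm2 at 49981 bp and Pip4k2a at 49957 bp were outside. The last 5 kb of the gene held 2.47% of the Smad3 and 2.23% of the JMJD3 peaks of this kind. The peaks covered 3025 kb for Smad3 and 2799 kb for JMJD3. Joined, they formed regions whose median width was 420 bp in the Smad3 list (quartiles 311 and 600 bp) and 590 bp in the JMJD3 list (460 and 780 bp), against 450 bp and 640 bp over all regions of each list.

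Most deep intragenic peaks of either factor overlapped a peak of the other by at least 1 bp. Under stricter rules this did not hold for Smad3. With midpoints within 200 bp, the shares were 49.3% for Smad3 and 67.7% for JMJD3. With a reciprocal overlap of 50%, they were 38.4% and 54.6%. The shares that follow use the 1 bp rule. A JMJD3 peak overlapped 4780 of the 7896 deep Smad3 peaks by at least 1 bp (60.5%, exact interval 59.4% to 61.6%), beside 60.2% of all Smad3 peaks. A Smad3 peak overlapped 4208 of the 5555 deep JMJD3 peaks (75.8%, 74.6% to 76.9%), beside 81.4% of all JMJD3 peaks. Because the lists differ in length, the 2 shares cannot be ranked against each other. Peaks equally far from a TSS but outside the closest gene overlapped in 61.0% of cases for Smad3 and 75.1% for JMJD3. Against these, deep intragenic peaks differed by -0.43 percentage points for Smad3 (odds ratio 0.982, 95% interval 0.931 to 1.04) and by 0.70 for JMJD3 (1.04, 0.966 to 1.12). Neither difference passed a two-sided Fisher exact test (adjusted p = 0.505 and 0.42, Benjamini-Hochberg over 4 tests). The Smad3 difference passed in opposite directions under other choices of peaks, with -2.40 points in the wider 50% of both lists (Fisher exact adjusted p = 0.0412) and 1.64 points when only the widest Smad3 peaks were kept, in the number of the JMJD3 peaks (0.0299).

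Against peaks 5 to 50 kb inside the closest gene, the deep Smad3 peaks overlapped JMJD3 more often, with 60.5% against 56.5% (odds ratio 1.18, 1.12 to 1.25, Fisher exact adjusted p = 3.27e-08). The deep JMJD3 peaks overlapped Smad3 less often, with 75.8% against 77.9% (odds ratio 0.888, 0.819 to 0.963, Fisher exact adjusted p = 0.00753). The Smad3 difference took the other sign, at -1.17 points (Fisher exact adjusted p = 0.298), when only the wider 50% of each list was used. The JMJD3 difference did not pass the Fisher exact test with joined regions as the unit (-1.14 points, adjusted p = 0.226), with midpoints within 200 bp (-0.93, 0.343) or with a reciprocal overlap of 50% (-1.35, 0.183). Neighbouring peaks are not independent, so these p-values are too small, and they compare classes of peaks within 2 libraries.

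**Figure D1:**
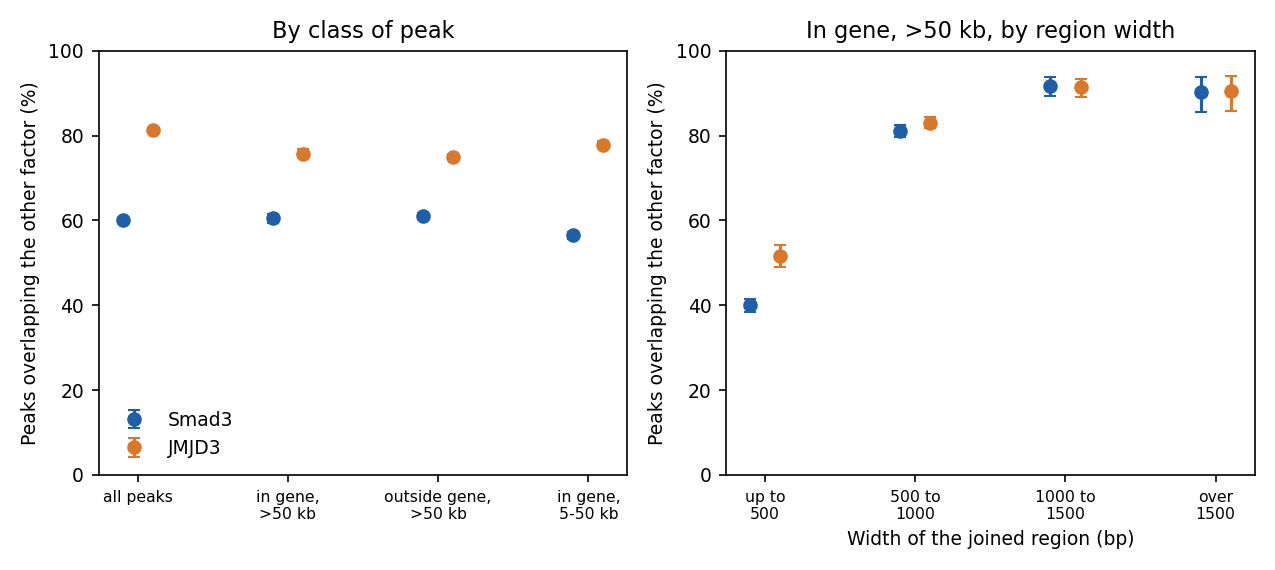
Left, share of peaks (%) that overlap a peak of the other factor by at least 1 bp, for all peaks and 3 classes of position; right, the same share for deep intragenic peaks by the width of their joined region (bp). Points are shares and bars exact 95% binomial intervals, Smad3 in blue and JMJD3 in orange; the share of deep Smad3 peaks goes from 40.0% in regions up to 500 bp to 91.8% in those of 1000 to 1500 bp.

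Region width went with overlap among the deep peaks, and much the same among far peaks outside the closest gene. Deep Smad3 peaks in regions up to 500 bp wide overlapped JMJD3 in 40.0% of cases, those of 500 to 1000 bp in 81.1%, those of 1000 to 1500 bp in 91.8% and those above 1500 bp in 90.3%. For deep JMJD3 peaks the shares were 51.6%, 83.1%, 91.4% and 90.6%. Wider intervals also have more room to touch another interval, and the part of that in the shares was not tested. In the narrowest class, deep Smad3 peaks overlapped in 40.0% of cases (38.5% to 41.5%). Smad3 peaks over 50 kb from the TSS but outside the closest gene overlapped in 40.5% (39.6% to 41.5%). Those 5 to 50 kb inside a gene overlapped in 34.6% (33.5% to 35.8%), an interval that met neither of the others. For the far peaks outside the gene, the Smad3 shares in the wider classes were 79.9%, 89.6% and 91.2%. Their JMJD3 shares, from the narrowest class up, were 49.0%, 82.9%, 93.0% and 90.0%. By distance from the TSS, the Smad3 share was 58.9% at 50 to 100 kb, 62.5% at 100 to 200 kb, 62.2% at 200 to 500 kb and 60.1% beyond, and the intervals of the first pair of classes (57.3% to 60.4% and 60.6% to 64.4%) did not meet. The JMJD3 share was 76.8%, 74.8%, 74.4% and 75.7% in the same classes, with intervals that met.

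Some deep peaks without an overlap were still near the other factor. The distances were not computed for other classes of peaks, so they are not read as particular to deep peaks. Of the 3116 such Smad3 peaks, 18.6% had a JMJD3 peak within 1 kb and 42.8% within 5 kb, with a median gap of 7290 bp. Of the 1347 such JMJD3 peaks, 28.0% had a Smad3 peak within 1 kb and 47.8% within 5 kb, with a median gap of 5730 bp. At the other end, 8.83% and 10.2% lay over 50 kb from any peak of the other factor.

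Deep peaks were spread over 1621 host genes. The files name 4122 genes with a span over 50 kb, and 1522 of them (36.9%) held a deep Smad3 peak and 1351 (32.8%) a deep JMJD3 peak. Both factors had deep peaks in 1252 genes, which is 82.3% of the Smad3 hosts and 92.7% of the JMJD3 hosts. Another 270 genes held deep peaks of Smad3 alone, with 8 at most in a gene, and 99 held those of JMJD3 alone, with 3 at most. Genes that are closest to no peak are not in the files, so these shares are of genes with some peak. A host held a median of 3 deep Smad3 peaks, and 225 genes with 10 or more held 50.4% of them all. For JMJD3 the median was 2, and 127 genes with 10 or more held 33.8%. Longer genes were hosts more often: 14.3% of genes with spans of 50 to 100 kb held a deep Smad3 peak, 48.8% of those of 100 to 200 kb, 76.7% of those of 200 to 500 kb and 80.6% of those above 500 kb. The density did not follow length, with 1.55, 2.17, 2.16 and 1.18 deep Smad3 peaks per 100 kb of gene body beyond 50 kb in the same classes, and 1.02, 1.51, 1.54 and 0.834 for JMJD3.

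**Figure D2:**
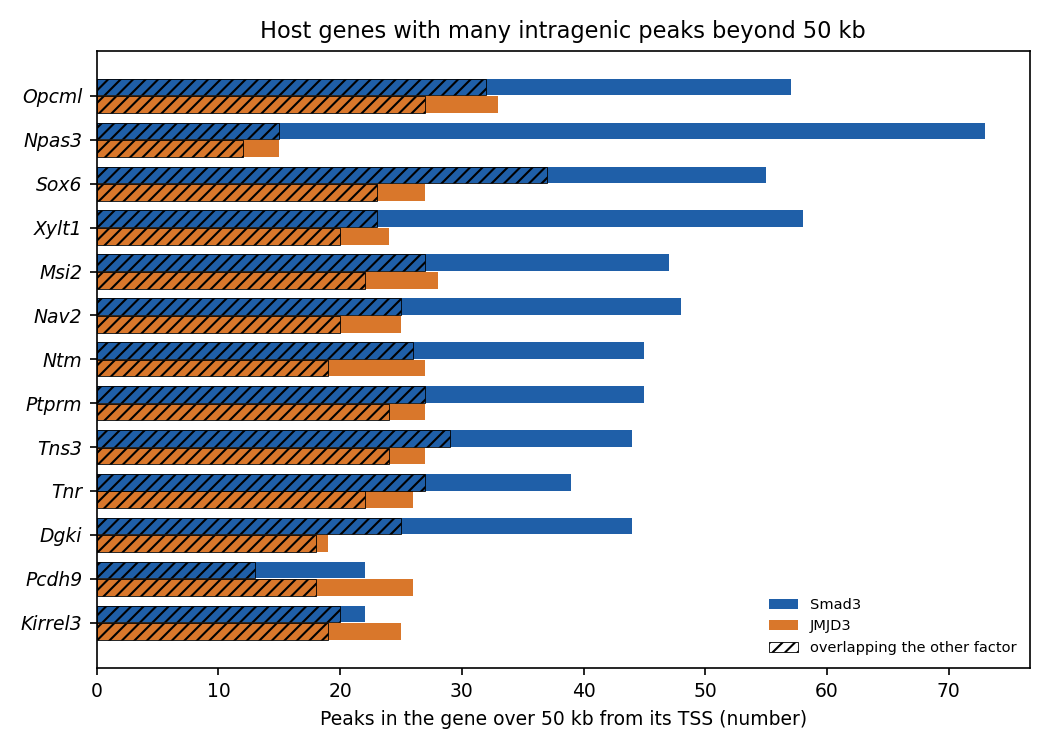
Number of deep intragenic peaks in 13 of the host genes that lead for either factor; blue bars are Smad3, orange bars JMJD3, and the hatched length is the peaks that overlap the other factor. Npas3 has 73 Smad3 peaks, of which 15 overlap JMJD3, and Opcml has 33 JMJD3 peaks, of which 27 overlap Smad3.

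Transcription factor genes of neural cells carried many of the deep peaks. Npas3 held 73 Smad3 and 15 JMJD3 deep peaks over a span of 823.5 kb, and only 15 of the 73 overlapped JMJD3. Sox6 and Sox5 encode SoxD factors, which time the formation of neurons and glia. Sox6 held 55 Smad3 and 27 JMJD3 deep peaks, with 37 and 23 overlapping the other factor, and Sox5 held 22 of each. The nuclear factor I genes Nfia and Nfib, which promote the switch to glia, held 30 and 27 deep Smad3 peaks and 19 and 22 deep JMJD3 peaks. Auts2, linked to Polycomb complexes, held 38 and 24. Of the 58 long genes on the list of neural transcription factors, 43 (74.1%) held a deep Smad3 peak and 44 (75.9%) a deep JMJD3 peak. The shares were 60.4% and 55.9% over all genes with a span of at least 100 kb. The median span of the list was 218 kb, and over all genes with spans of 200 to 500 kb the shares were 76.7% and 72.5%. The host shares of the list are therefore near those of genes of like span. The median gene had 2.26 and 2.04 deep peaks per 100 kb, against 0.832 and 0.594 over all genes with a span of at least 100 kb. Pooled, the list had 4.39 deep Smad3 and 2.74 deep JMJD3 peaks per 100 kb, which is 2.40 times (2.21 to 2.61, Poisson interval) and 2.13 times (1.92 to 2.36) the density of all long genes. The Poisson intervals, here and for the lists below, treat the peaks of a gene as independent. Neighbouring peaks are not independent, so these intervals are too narrow. Rora, a nuclear receptor gene, and Dach1 held none.

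The list of progenitor and radial glia genes had the highest pooled density of the 12 lists, at 7.88 deep Smad3 and 4.01 deep JMJD3 peaks per 100 kb, or 4.32 times (3.87 to 4.81) and 3.12 times (2.67 to 3.63) that of all long genes. In the wider 50% of peaks the ratios were 5.44 and 5.05. It shares 10 of its 20 long genes with the transcription factors, among them Npas3, Sox6, Sox5, Nfia and Nfib, so the 2 lists are not separate evidence. All 12 lists were chosen with earlier results of these data known, so their order is not an independent finding. Of the 20 long progenitor and radial glia genes, 15 (75%) held a deep Smad3 peak and 13 (65.0%) a deep JMJD3 peak, beside 60.4% and 55.9% of all genes with a span of at least 100 kb. Msi2, which encodes the RNA-binding protein Musashi 2 of neural stem cells, held 47 and 28. Lrig1, a transmembrane inhibitor of EGF receptor signalling, held 30 and 15 in only 45.6 kb of body beyond 50 kb. Slc1a3, the glutamate transporter of radial glia and astrocytes, held 12 and 2. Notch2 held 1 deep Smad3 peak and no deep JMJD3 peak, Zbtb20 held 5 and 4, and Rfx4 and Dach1 held none. Of the 20 genes, 17 (85.0%) had a Smad3 peak within 1 kb of the TSS and 15 (75%) a JMJD3 peak, beside 77.9% and 62.1% of all long genes.

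**Figure D3:**
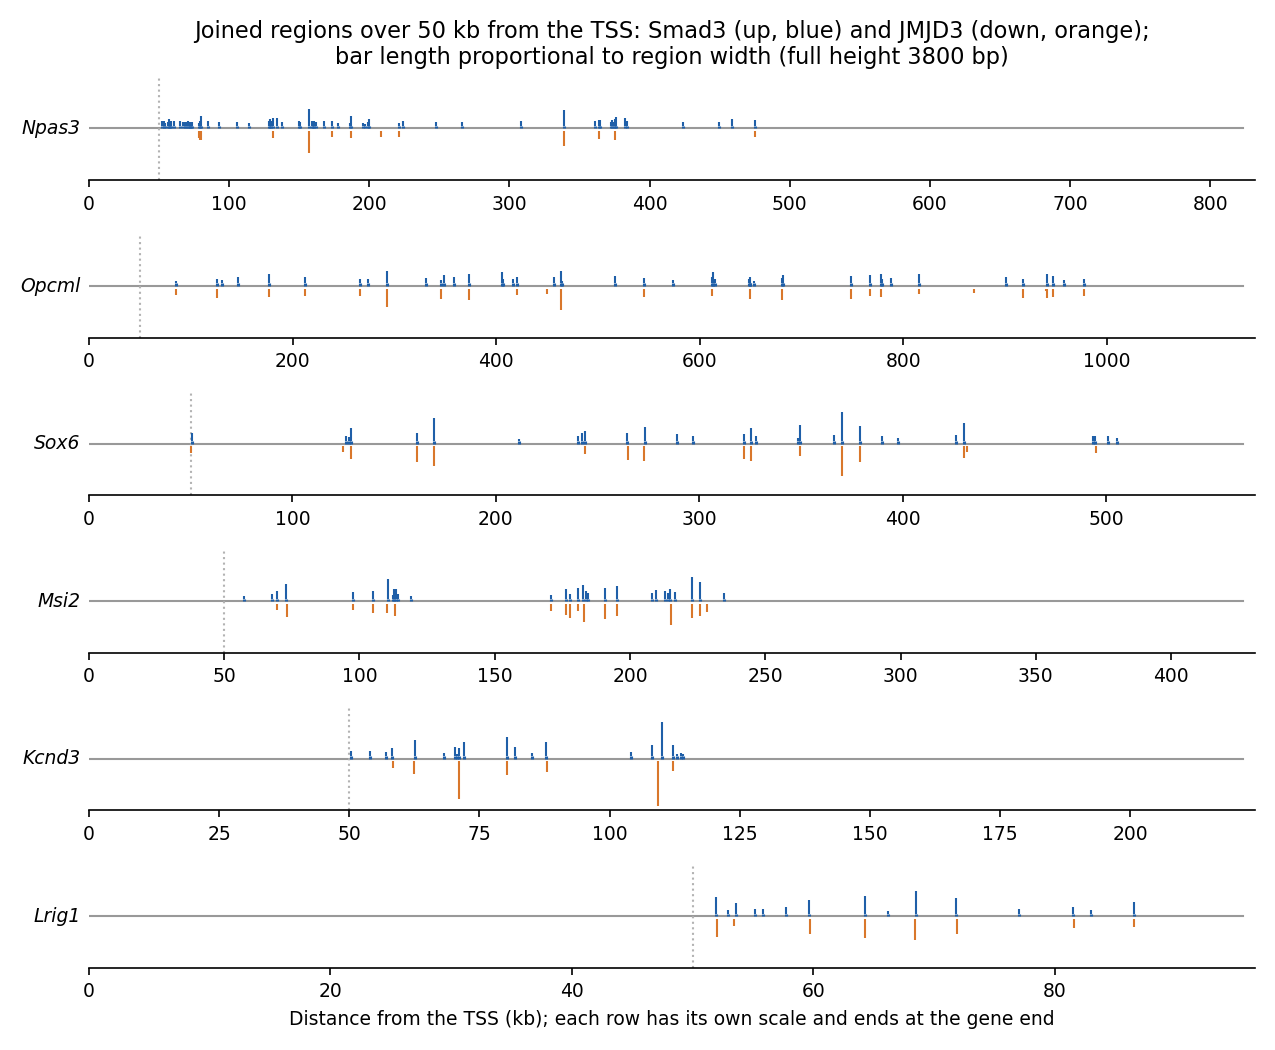
Position of the joined deep regions along 6 host genes, in kb from the TSS (each row on its own scale, to the end of the gene), Smad3 upward in blue and JMJD3 downward in orange, with bar length proportional to region width and a dotted line at 50 kb. Lrig1 holds 15 Smad3 and 8 JMJD3 regions between about 52 and 87 kb; peaks that lie closer to another TSS are not drawn.

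In Lrig1 (chr6:94554522-94650139, minus strand, mm9), 30 deep Smad3 peaks formed 15 regions within 35.7 kb, and all 15 deep JMJD3 peaks overlapped Smad3. The widest was a Smad3 region of 1770 bp at chr6:94580721-94582490, 68.5 kb from the TSS, which overlapped a JMJD3 region of 1670 bp. Smad3 regions without JMJD3 in the same gene were narrow, such as 1 of 230 bp at 66.2 kb and 1 of 301 bp at 52.9 kb.

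The list of neural cell adhesion genes had many deep peaks in number but not in density. Opcml and Ntm, neighbouring IgLON genes whose products are anchored in the neuronal membrane, held 57 Smad3 and 33 JMJD3 deep peaks, and 45 and 27. Pcdh9, a protocadherin gene, held 22 and 26 and had no peak of either factor within 1 kb of its TSS. Kirrel3, for an immunoglobulin superfamily adhesion protein, held 22 and 25 but is not on this list. Of the 50 long genes of the list, 36 (72.0%) held a deep Smad3 peak, 36 (72.0%) a deep JMJD3 peak and 34 both. The median span of the list was 462 kb. Of all genes with spans of 200 to 500 kb, 76.7% held a deep Smad3 peak and 72.5% a deep JMJD3 peak. The pooled density was 0.981 times (0.894 to 1.07) that of all long genes for Smad3 and 1.03 times (0.925 to 1.15) for JMJD3. Over the longest listed spans, whichever TSS was closest, the ratios were 0.666 and 0.696. Ctnna2 and Cntnap5a held none.

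Axon guidance genes included Sema5b, a semaphorin, with 17 deep Smad3 and 13 deep JMJD3 peaks, the semaphorin receptors Plxna4 with 15 and 10 and Plxna2 with 12 and 12, and Robo1, a Slit receptor, with 9 and 13. The list stood at 1.39 times (1.19 to 1.61) the density of all long genes for Smad3 and 1.43 times (1.20 to 1.70) for JMJD3. Counting every peak in the longest listed span of a gene, whichever TSS was closest, the ratios were 0.867 and 0.946, so the direction turned. Slit3 and Robo2 held no deep peak, though 11 and 6 Smad3 peaks lay deep in their longest spans.

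**Figure D4:**
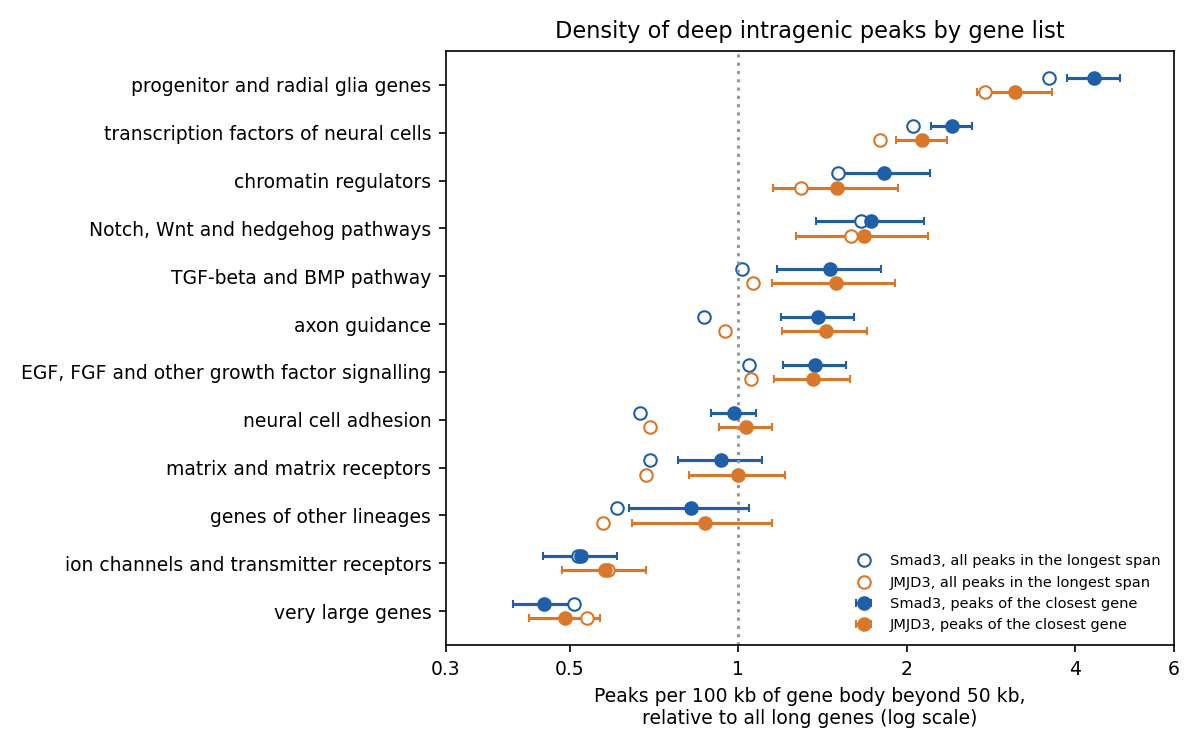
Deep intragenic peaks per 100 kb of gene body beyond 50 kb for 12 gene lists, divided by the value over all long genes (log scale, dotted line at 1); filled points count peaks credited to the closest TSS with Poisson 95% intervals, open points all peaks over 50 kb into the longest listed span. Progenitor and radial glia genes (4.32 for Smad3) and neural transcription factors (2.40) lie above 1 in both countings, and ion channels (0.522) and very large genes (0.450) below 1 in both. The intervals treat the peaks of a gene as independent and are too narrow, and the lists were chosen with earlier results of these data known.

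Genes of the TGF-beta and BMP pathway held deep peaks in small numbers. The Smad3 gene itself, on the minus strand of chromosome 9, held 4 Smad3 and 3 JMJD3 deep peaks. All 3 JMJD3 regions overlapped a Smad3 region, the first pair at 51.5 kb from the TSS where the Smad3 region was 561 bp wide and the JMJD3 region 700 bp. The receptor genes Tgfbr2 and Tgfbr3, which encode the type II receptor and betaglycan, held 3 of each factor. In Tgfbr2 a Smad3 region of 1100 bp at chr9:116008101-116009200, 75.8 kb from the TSS, lay inside a JMJD3 region of 1510 bp. Smad6, an inhibitory Smad of BMP signalling, held 9 and 5 in 18.985 kb of body beyond 50 kb. Bmper, which encodes a BMP-binding protein, held 15 and 11, and Tmeff2, a membrane protein with follistatin-like domains, 6 and 7. Of the 32 long genes, 22 (68.8%) held a deep Smad3 peak, 22 (68.8%) a deep JMJD3 peak and 21 both. The shares were 36.9% and 32.8% over all long genes and 60.4% and 55.9% over those with a span of at least 100 kb. The pooled density was 1.46 times (1.17 to 1.80) and 1.49 times (1.15 to 1.90) that of all long genes. Counted over the longest spans, it was 1.02 and 1.06 times. Smurf2 and Ltbp2 held none.

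The list of growth factor signalling genes counts the adhesion phosphatase gene Ptprm, which led it with 45 deep Smad3 and 27 deep JMJD3 peaks. Prkca, for protein kinase C alpha, held 33 and 14, and Ntrk2, for the BDNF receptor, 18 and 15. Nf1 and Pdgfd held none. The list stood at 1.37 times (1.20 to 1.56) and 1.36 times (1.16 to 1.58) the density of all long genes, and at 1.04 and 1.05 times over the longest spans. Without Ptprm it stood at 1.19 times for Smad3 and 1.22 times for JMJD3. On the list of Notch, Wnt and hedgehog genes, the hedgehog effectors Gli3 and Gli2 held 13 and 14, and 12 and 11, and Daam1, a formin of Wnt signalling, held 20 and 6. Of its 24 long genes, 11 (45.8%) held a deep Smad3 peak and 10 (41.7%) a deep JMJD3 peak. The shares were 36.9% and 32.8% over all long genes and 60.4% and 55.9% over those with a span of at least 100 kb. The median span of the list was 127 kb, against 98.2 kb over all long genes. The median gene of the list had none, and the pooled density was 1.73 times (1.37 to 2.15) and 1.68 times (1.27 to 2.18) that of all long genes. Tcf7l2, a Wnt effector, and Ror2 held none, although 16 Smad3 and 8 JMJD3 peaks lay deep in the longest span of Tcf7l2.

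Chromatin regulator genes were as uneven. Rere, an atrophin family corepressor, held 22 deep Smad3 and 12 deep JMJD3 peaks, and Jarid2, a partner of Polycomb repressive complex, 11 and 8. Of 33 long genes, 11 and 12 were hosts, a share of 33.3% and 36.4%. All long genes gave 36.9% and 32.8%, and those with a span of at least 100 kb gave 60.4% and 55.9%. The median span of the list was 129 kb. The pooled density was 1.82 times (1.49 to 2.20) and 1.50 times (1.15 to 1.93). Ncoa2 and Smarca2 held none. Among matrix genes, Tnr, for tenascin-R, held 39 and 26, Gpc5, a glypican gene, 8 and 9, and Col25a1, a membrane collagen gene, 8 and 9. That list stood at 0.931 times (0.780 to 1.10) and 1.00 times (0.815 to 1.21), and without Tnr at 0.692 and 0.779. Col23a1 and Itga8 held none.

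The list of channels and transmitter receptors lay below the density of all long genes, at 0.522 times (0.448 to 0.606) for Smad3 and 0.577 times (0.484 to 0.683) for JMJD3. Not every channel gene is on it. Kcnd3, a potassium channel gene left off the list, held 37 deep Smad3 and 18 deep JMJD3 peaks, or 21.6 and 10.5 per 100 kb. On the list, the following genes had most deep peaks. Cacna1c, for an L-type calcium channel, held 22 and 14, Grm5, a metabotropic glutamate receptor gene, 17 and 14, and Kcnma1, a calcium-activated potassium channel gene, 16 and 15. Grm8 and Grid1 held none. The list of very large genes, with a median span of 1098 kb, was the sparsest, at 0.450 times (0.396 to 0.510) and 0.490 times (0.423 to 0.565). On it are Magi1, a junction scaffold gene, with 38 and 21, and Rbms3, for an RNA-binding protein, with 22 and 17, while Macrod2 and Immp2l held none. Genes best known from other lineages stood at 0.821 times (0.637 to 1.04) and 0.871 times (0.647 to 1.15), and over the longest spans at 0.606 and 0.573 times. Ebf1, which acts in B cells and also in neurons, held 19 and 10, Cubn, a vitamin B12 uptake receptor of kidney and gut, 16 and 12, and Slc4a4, a bicarbonate transporter gene, 10 and 8, while Trps1 held none. Of the 27 long genes of that list, 10 (37.0%) had a Smad3 peak within 1 kb of the TSS and 5 (18.5%) a JMJD3 peak, beside 77.9% and 62.1% of all long genes.

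Outside the lists, Xylt1, whose enzyme starts glycosaminoglycan chains, held 58 deep Smad3 and 24 deep JMJD3 peaks. Nav2, a neuron navigator gene, held 48 and 25, Tns3 44 and 27, and Dgki, a diacylglycerol kinase gene, 44 and 19. Meis1, a homeobox gene, held 8 and 6, and Tcf12, a basic helix-loop-helix gene, 5 and 3. By density, Cdhr3, a cadherin-related gene, had 110 deep peaks of both factors per 100 kb, but this is 10 peaks in 9.08 kb. Lrig1 had 98.6, Smad6 73.7 and Kif1b, a kinesin gene, 62.6.

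The balance between the factors varied from gene to gene. JMJD3 made up 41.3% of all deep peaks, against 39.2% of all peaks. In the 436 hosts with at least 10 deep peaks its share ran from 8.33% to 70.0%, with a median of 42.1% and quartiles of 36.4% and 50%. The lowest shares were in Creb3l2, with 11 Smad3 peaks and 1 JMJD3 peak, Chd9 with 10 and 1, Fyn, a Src family kinase gene, with 14 and 2, Slc1a3 with 12 and 2, and Srgap2, for a GTPase-activating protein of Slit-Robo signalling, with 32 and 6. The highest were in Gsg1l and Sez6l, with 3 and 7 each, Glis3, a zinc finger factor gene, with 6 and 12, Wdr72 with 5 and 9, and Adcy8, an adenylyl cyclase gene, with 4 and 7. These genes were taken from the ends of the order, and counts this small have wide counting error.

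The widest deep regions of either list overlapped the other factor. The widest of Smad3 was 2900 bp in Slc1a3 (chr15:8608051-8610950), 51.3 kb from the TSS, beside a JMJD3 region of 1840 bp. The widest of JMJD3 was 3501 bp in Kcnd3 (chr3:105369281-105372781), a potassium channel gene, 109 kb from the TSS, and it met a Smad3 region of 2630 bp at chr3:105370531-105373160. Taking 1 region per gene and leaving out genes on chromosome 18, predicted genes and unnamed genes, the 8 widest of each factor all overlapped a region of the other. For Smad3 the rest of these were in Wwc1 (2500 bp), Hip1 (2480 bp), Prickle1 (2390 bp), Polr3b (2360 bp), Sorcs1 (2340 bp) and Ctnnd2 (2251 bp). For JMJD3 they were in Nfib (2620 bp), Cdhr3 (2440 bp), Stx8 (2410 bp), Sox5 (2390 bp), Sox6 (2320 bp), Ctnnd2 (2290 bp) and Disc1 (2211 bp). The partner could be much narrower: in Nfib the JMJD3 region at chr4:81949021-81951640, 201 kb from the TSS, met a Smad3 region of 200 bp, and in Disc1 the partner was 261 bp. In Sox6 the region at chr7:122767311-122769630, 370 kb from the TSS, met a Smad3 region of 2221 bp.

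Deep peaks were chained into stretches along the genes. Peaks of the same joined region count separately in them, and other classes of peaks were not chained for comparison. When peaks of the same list at most 12500 bp apart were chained, the 7896 deep Smad3 peaks gave 3252 stretches, and 374 stretches with at least 5 peaks held 38.9% of them, while 20.6% stood alone. The 5555 deep JMJD3 peaks gave 2773 stretches, of which 189 with at least 5 peaks held 22.6%, and 26.6% of the peaks stood alone. A list with more peaks chains more easily, so the factors are not compared. Runs of Smad3 reached 33 peaks (21 joined regions) over 51.3 kb of Dgki and 33 (25 regions) over 77.1 kb of Xylt1. Srgap2 held 32 in 58.2 kb, of which 7 overlapped JMJD3, whereas 22 of the 30 in Lrig1 did. Msi2 held 29 in 64.2 kb, starting 171 kb from the TSS. For JMJD3 the runs reached 16 peaks (10 regions) over 50.1 kb of Nav2. Others were the 15 of Lrig1 (8 regions), 14 over 24.9 kb of Msi2 (7 regions) and 13 over 39.7 kb of Sema5b (11 regions).

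Position along the gene depended on how peaks were credited. In genes with a span of at least 300 kb, the gene body beyond 50 kb was divided into 10 equal pieces. The piece nearest the TSS held 20.9% of the deep Smad3 peaks and the piece at the gene end 1.41%, and for JMJD3 the shares were 19.9% and 1.23%. Late in a gene the TSS of a neighbour or of a shorter transcript is often closer, and such peaks are then not taken by the rule. When all peaks over 50 kb into the longest listed span were counted, 6231 for Smad3 and 4352 for JMJD3 in these genes, the shares were 10.8% and 10.2% for Smad3 and 10.7% and 9.54% for JMJD3 at the same ends. Over genes of any span above 50 kb that counting gave 16430 and 11302 peaks, of which the rule had not taken 8539 and 5748. Genes without deep peaks show the same effect of crediting: Rora had 52 Smad3 and 40 JMJD3 peaks deep in its longest span, Macrod2 28 and 20 and Rfx4, a progenitor factor gene, 11 and 5. Nfia had 100 and 49 there, Npas3 118 and 31, Msi2 96 and 58 and the Smad3 gene 11 and 7. Dach1, Cntnap5a, Pdgfd and Itga8 had 0 in either counting.

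**Figure D5:**
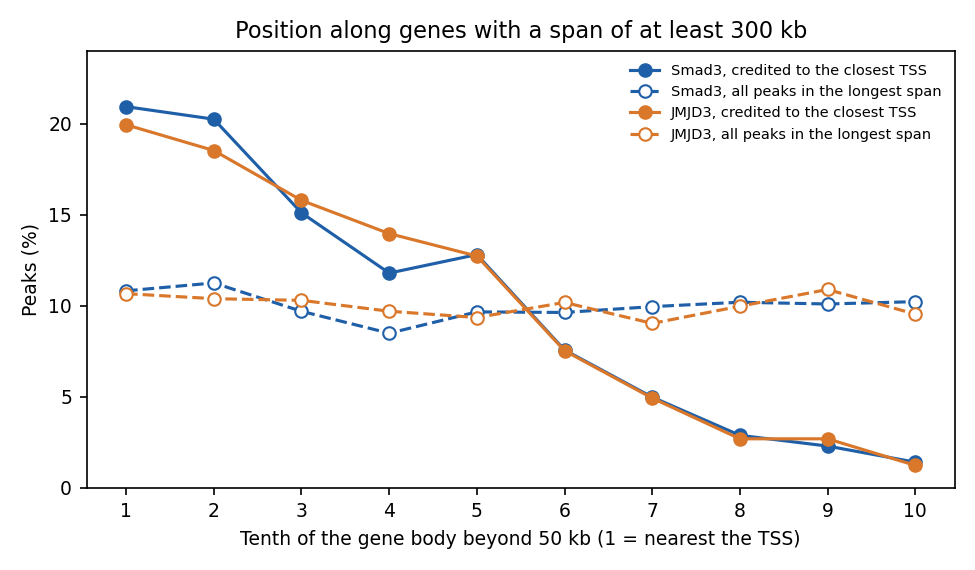
Share of peaks (%) in each of 10 equal pieces of the gene body beyond 50 kb, from the TSS side to the gene end, in genes with a span of at least 300 kb; filled points count peaks credited to the closest TSS and open points all peaks in the longest listed span. The filled series fall from 20.9% (Smad3) and 19.9% (JMJD3) to 1.41% and 1.23%, and the open series stay near 10.8% to 9.54% at their ends.

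Promoter peaks were found at most host genes, and no difference from other long genes passed the test with genes of all spans pooled. Host genes had a median span of 164 kb and long genes without deep peaks 76.5 kb. A Smad3 peak lay within 1 kb of the TSS in 1192 of the 1522 Smad3 hosts (78.3%, exact interval 76.2% to 80.4%) and in 77.6% of the other 2600 long genes (odds ratio 1.04, 0.894 to 1.22, Fisher exact adjusted p = 0.587). A JMJD3 peak lay there in 820 of the 1351 JMJD3 hosts (60.7%, 58.0% to 63.3%) and in 62.8% of the other 2771 (odds ratio 0.916, 0.800 to 1.05, Fisher exact adjusted p = 0.412). Genes are in the files only if they have some peak, so the comparison genes too were chosen by having one. Among genes with a span of 100 kb or more, the JMJD3 difference turned from -2.06 to 3.09 percentage points (Fisher exact adjusted p = 0.174). Within classes of span the differences were not tested. JMJD3 hosts had the higher JMJD3 share in each class. It was 67.3% against 65.8% at 50 to 100 kb, and 63.8% against 60.9% at 100 to 200 kb. At 200 to 500 kb it was 56.2% of 479 hosts against 44.0% of 182 others, and above 500 kb 53.2% of 124 against 33.3% of 36. The Smad3 shares in the same classes were 78.9% against 79.0%, and 79.7% against 76.9%. In the longer classes they were 77.7% of 507 hosts against 68.2% of 154 others, and 72.9% of 129 against 54.8% of 31. Conversely, 330 Smad3 hosts and 531 JMJD3 hosts had deep peaks of a factor and no peak of it within 1 kb of the TSS, Pcdh9 among both.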

How the data were processed

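Peak lists of the Smad3 and JMJD3 ChIP-seq libraries were analysed, and the input library had no list used here. CASAVA, Bowtie 0.12.7, MACS 1.4 and build mm9 are named in the submitters' processing notes. Thresholds and the use of the input: not given in the sources used here. Per the file headers, the deposited rows hold peak and gene coordinates and the signed distance in bp from the closest RefSeq TSS, with no score. Width of joined regions (at most 10 bp apart) therefore stands for strength, imperfectly. Peaks were listed per library.

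The limit of 50 kb, the classes of peaks, overlap by at least 1 bp, exact Clopper-Pearson 95% intervals and two-sided Fisher exact tests with Benjamini-Hochberg adjustment were computed in Python 3.11.15 (pandas 2.3.3, NumPy 2.4.6, SciPy 1.17.1), and the overlap counting was tested on simulated data. Density is the number of deep peaks per 100 kb of gene span beyond 50 kb, with the span taken from the longest listed transcript. The genes named are the 10 hosts with most deep peaks of each factor, the 8 genes with the widest region of each, the 5 highest and 5 lowest JMJD3 shares and the 5 densest among hosts with at least 10 deep peaks, up to 3 leading genes and 2 genes without deep peaks from each of 12 lists, and Smad3, Npas3, Nfia, Tcf12, Zbtb20, Meis1, Notch2, Tgfbr2 and Tgfbr3. Predicted and unnamed genes, microRNAs and genes on chromosome 18 were skipped, and a few others chosen this way are left unreported. Robo1, Lrp1b and the genes at the threshold stand outside this rule and were chosen after their values were seen. The members and lists were chosen with earlier results of these data known. Alternatives covered other distance limits, the wider 50% of peaks, other overlap rules, joined regions, autosomes, whole peaks inside the gene and coding transcripts, and, chosen after the data were seen, longest listed spans, comparison peaks outside every listed gene, lists counted by regions and lists without the leading gene.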

Additional observations from a re-analysis of the deposited data

How the results depend on the processing

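No paired analysis was possible because each antibody has 1 library and the labels give no replicate numbers. The cause of the shifts below was not tested, except that other distance limits and wider peaks change the peaks taken by construction, and that the wider 50% also removes peaks of the partner list. Deep peaks made up 13.0%, 5.39% and 3.89% of the Smad3 list at limits of 25, 75 and 100 kb, and 13.8%, 6.08% and 4.40% of the JMJD3 list. They made up 6.42% and 6.66% of the wider 50%, 8.51% and 9.30% of peaks at coding transcripts, 8.78% and 9.53% of joined regions, and 16.8% and 17.9% in the longest spans. The Smad3 overlap was 59.3%, 61.8% and 62.3% at 25, 75 and 100 kb. It was 57.3% in the wider 50%, 55.4% with joined regions, 49.3% with midpoints within 200 bp, 38.4% with reciprocal overlap and 80.0% with the widest Smad3 peaks in the number of JMJD3 peaks. The JMJD3 overlap was 70.6% in the wider 50%, 67.7% with midpoints, 54.6% with reciprocal overlap and 54.5% against the widest Smad3 peaks. The Smad3 difference from far peaks outside the gene was 0.26 points at 75 kb (adjusted p = 0.931), 0.058 at 100 kb (0.954), -2.40 in the wider 50% (0.0412) and 1.64 with the widest Smad3 peaks (0.0299), and the JMJD3 difference was -1.58 in the wider 50% (0.235), Fisher exact test throughout. Against peaks 5 to 50 kb inside the gene, the Smad3 difference was -1.17 points in the wider 50%, and the JMJD3 difference was -1.14 with joined regions, -0.93 with midpoints and -1.35 with reciprocal overlap. Median width was 350 bp and 480 bp for single peaks of Smad3 and JMJD3, and 450 bp and 610 bp when joined at up to 500 bp. Smad3 hosts numbered 2610, 999 and 701 at 25, 75 and 100 kb and 803 in the wider 50%. JMJD3 hosts numbered 2258, 914 and 647 at these limits and 676 in the wider 50%, and hosts of both 2062, 841, 594 and 575. The JMJD3 promoter difference was 3.09 points among genes of 100 kb or more (Fisher exact adjusted p = 0.174).

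Of list densities relative to all long genes, counting all peaks in the longest spans gave, for Smad3 and JMJD3, 0.867 and 0.946 for axon guidance, 0.666 and 0.696 for adhesion, 2.05 and 1.79 for neural transcription factors, 1.02 and 1.06 for the TGF-beta and BMP pathway, 1.04 and 1.05 for growth factor signalling, 0.695 and 0.683 for matrix and 0.606 and 0.573 for other lineages, and 3.60 for progenitor genes with Smad3. In the wider 50%, Smad3 gave 2.75 for neural transcription factors, 5.44 for progenitor genes, 2.26 for chromatin regulators and 0.327 for very large genes, and JMJD3 gave 2.74, 5.05, 1.59 for growth factor signalling and 0.469 for channels. Without the leading gene, Smad3 gave 1.19 for growth factor signalling (Ptprm), 1.37 for Notch, Wnt and hedgehog (Daam1), 0.692 for matrix (Tnr), 0.364 for very large genes and 0.636 for other lineages (Ebf1), and JMJD3 gave 0.779 for matrix and 0.387 for very large genes. The other differences in overlap and promoter shares kept their direction and their side of the Fisher exact test. Depth is unknown, so a missing peak does not show that a factor is absent.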
